A study of Mus musculus with 49 samples.

Results

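The mRNAs of NF-kB were followed in mouse CD8+ T cells through the genes of its 5 subunits, *Nfkb1*, *Nfkb2*, *Rel*, *Rela*, and *Relb*, and of 5 inhibitors of the IkappaB family, *Nfkbia*, *Nfkbib*, *Nfkbie*, *Nfkbid*, and *Nfkbiz*. These 10 genes were taken by symbol from the 23992 gene symbols of the deposited files, with the longest transcript of each. CD8+ T cells were purified from the spleens of C57BL/6J mice from 2 colonies, in which the tyrosine of STAT5A (*Stat5a* colony) or of STAT5B (*Stat5b* colony) that cytokines cause to be phosphorylated was changed to phenylalanine by CRISPR, with further silent changes. Homozygous knock-in (KI) cells of each colony were set beside WT cells of littermates of that colony, either freshly isolated without IL-2 (0 hr) or after 4, 24, or 48 hr with 500 IU/ml IL-2. The KI allele is present in every cell of the mouse, so the cells also developed with it. Each of the 16 groups of colony, genotype, and time has 3 libraries, and 1 of the 48 libraries, the third of *Stat5a* KI at 4 hr, was left out, since only 5.68% of its mapped reads fell on the transcripts used (1028515 reads). The labels do not say whether libraries of a group came from separate mice, so the p-values measure the spread between these libraries, which may be technical. No cells were cultured without IL-2 for 4 to 48 hr, so IL-2 and time in culture cannot be told apart.

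NF-kB acts as dimers of the subunits. In the canonical pathway, IkappaB proteins hold dimers of RelA, c-Rel, and p50 in the cytoplasm until the IKK kinase marks the inhibitors for degradation, and in the noncanonical pathway p100, the *Nfkb2* product, is processed to p52, the partner of RelB. *Nfkbia* is itself a target gene of NF-kB, which gives the pathway a negative feedback loop, and in T cells c-Rel and RelA are known for their part in the response to the antigen receptor. These are known features of the pathway, and no protein or DNA binding was measured here.

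Each library held 17369112 to 60200653 reads on the transcripts used (median 41410666), which were 44.86% to 84.43% of the mapped reads (median 75.29%). Levels are given in RPKM, read counts scaled to transcript length and to the mapped reads of the library, as deposited. Every one of the 10 genes was well covered, with the fewest reads for any of them in a library being 480, for *Nfkbid*. Differences are log2 fold changes with SE from the counts, by edgeR's quasi-likelihood test in 1 fit of the 47 libraries. A gene is said to have passed at an adjusted p (Benjamini-Hochberg, over the 15566 genes tested) no higher than 0.05, and all 10 were tested.

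A pair of libraries stood apart from their groups. In replicate 2 of the *Stat5a* colony WT cells at 4 hr, 44.86% of the mapped reads fell on the transcripts, the *Nfkb2* RPKM was 17.4 against 52.9 and 54.0 in the other replicates, and the summed RPKM of 7 CD8+ T cell markers was 735 against 1179 and 1300.0. In replicate 3 of the *Stat5a* colony WT cells at 0 hr, the *Nfkbia* RPKM was 293 against 486 and 634, and the summed RPKM of 10 B cell markers was 60.2 against 162 and 179. That sum was also lowest in replicate 3 of these WT cells at 4, 24, and 48 hr (48.0, 26.4, and 13.4), and those libraries were kept. Leaving out the pair was decided after the values had been seen, and calls that this ended are given beside the result.

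The labelled cell type was checked with markers. The CD8+ T cell markers (*Cd8a*, *Cd8b1*, *Cd3d*, *Cd3e*, *Cd3g*, *Cd2*, and *Lck*) were abundant in all groups, with a summed RPKM of 1324 to 1592 in the *Stat5a* colony WT cells at 0 hr and of 1590 to 1768 in those of the *Stat5b* colony, and none was at 0. The mRNAs of the altered genes were present in KI cells. At 0 hr *Stat5a* had an RPKM of 20.01 ± 1.85 (SD, n = 3) in *Stat5a* KI and of 19.66 ± 0.78 in WT cells (log2 fold change 0.01, adjusted p = 0.977, edgeR), and *Stat5b* had 26.9, 27.2, and 27.0 in *Stat5b* KI and 28.3, 29.7, and 29.5 in WT cells (−0.17, adjusted p = 0.291, edgeR). The changes in these alleles alter an amino acid and are not meant to lower the mRNA, so these levels do not check the genotype.

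Before IL-2, *Nfkbia* mRNA was by far the most abundant of the 10. In the *Stat5a* colony WT cells at 0 hr its RPKM was 471 ± 171 (SD, n = 3), whereas the next was *Nfkb1*, at 54.2 ± 3.19. *Nfkbiz* (52.2 ± 11.6), *Nfkbid* (48.2 ± 23.4), *Rel* (44.6 ± 13.7), and *Rela* (42.4 ± 1.88) followed, and the libraries of neighbours in this order overlapped from *Nfkb1* down to *Rela*. Below them were *Nfkb2* (34.8 ± 6.45), *Nfkbib* (24.9 ± 3.26), *Relb* (23.9 ± 2.09), and *Nfkbie*, the lowest, at 14.7 ± 3.35, with *Nfkb2* and *Nfkbib*, and *Nfkbib* and *Relb*, overlapping and *Nfkbie* standing below all libraries of *Relb*.

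The upstream sequences of members that changed the most, or that differed between KI and WT cells, are shown for the reader to see what lies before these genes. They are the 250 bases before the transcription start in RefSeq for GRCm38.p6, on the strand of the gene, and none of these bases lies in an annotated exon. Capitals mark matches to the kappaB consensus, the 10-letter site bound by NF-kB, searched on both strands, so that matches can overlap. *Nfkbia* (chr12:55492648-55492897, minus strand), with the largest fall in WT cells, *Rel* (chr11:23770970-23771219, minus strand), the subunit with the largest fall, and *Nfkbie* (chr17:45555450-45555699, plus strand), which was higher in KI cells, hold a match. *Nfkbid* is shown at the first of its 3 annotated starts (chr7:30421481-30421730, plus strand), where there is none.
Nfkbia: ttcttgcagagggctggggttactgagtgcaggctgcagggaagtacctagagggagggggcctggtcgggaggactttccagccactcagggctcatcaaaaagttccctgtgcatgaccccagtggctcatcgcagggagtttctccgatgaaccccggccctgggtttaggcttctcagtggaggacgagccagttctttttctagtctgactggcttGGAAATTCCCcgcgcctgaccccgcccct
Rel: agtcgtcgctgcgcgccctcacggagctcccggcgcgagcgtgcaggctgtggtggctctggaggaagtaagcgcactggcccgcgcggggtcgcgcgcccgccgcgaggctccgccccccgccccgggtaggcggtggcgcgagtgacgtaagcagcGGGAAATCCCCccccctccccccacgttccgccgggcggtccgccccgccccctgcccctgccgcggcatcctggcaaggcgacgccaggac
Nfkbie: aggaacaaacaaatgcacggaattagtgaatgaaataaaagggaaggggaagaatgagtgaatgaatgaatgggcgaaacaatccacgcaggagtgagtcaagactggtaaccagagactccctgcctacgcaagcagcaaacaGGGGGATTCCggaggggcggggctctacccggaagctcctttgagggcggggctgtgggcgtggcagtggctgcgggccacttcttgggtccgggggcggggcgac
Nfkbid: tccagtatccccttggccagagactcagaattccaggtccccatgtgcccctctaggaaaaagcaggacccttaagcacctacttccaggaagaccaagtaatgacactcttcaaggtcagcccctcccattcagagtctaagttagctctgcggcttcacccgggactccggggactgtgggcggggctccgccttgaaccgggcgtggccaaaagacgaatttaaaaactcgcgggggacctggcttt
The match in *Nfkbia* begins 29 bases before the start, that in *Nfkbie* further upstream, and in *Rel* 2 overlapping matches begin 92 and 91 bases before. Of the 10 genes, 7 are in the promoter table used here, with 11 promoters, and *Nfkb1*, *Relb*, and *Nfkbiz* are not. A kappaB match was found for 5 of the 7 (*Nfkb2*, *Rel*, *Nfkbia*, *Nfkbie*, and, at its second start, *Nfkbid*), and the STAT-type GAS motif TTCNNNGAA for 2 (*Nfkb2* and *Nfkbid*). Unlike the windows shown, those of *Nfkb2* have 250, 185, and 235 of their 250 bases in annotated exons. The window at the second *Nfkbid* start has 66. Of all 27025 genes in the table, counted likewise by any of their promoters, 8.23% hold the kappaB consensus and 8.13% the GAS motif in the same 250 bases (7.25% and 7.02% of the 32851 promoters). A match describes letters in these windows and is not evidence of binding.

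Upon culture with IL-2, most members fell in WT cells, whereas *Nfkb1* did not pass at 48 hr in either colony. *Nfkbia*, *Rel*, *Nfkbid*, and *Nfkbiz* were at least 2-fold lower at 4, 24, and 48 hr than at 0 hr in WT cells of both colonies, which is 4 of 10 in each of the 6 comparisons. *Nfkbid* in the *Stat5b* colony lay at the 2-fold limit, with −1.04, −1.02, and −1.004, and without replicate 1 of the WT cells at 0 hr it fell short of it, at −0.815, −0.765, and −0.725. Among all genes tested, 11.4%, 14.2%, and 22.3% were lower to this degree in the *Stat5a* colony and 9.89%, 13.5%, and 20.7% in the *Stat5b* colony. At any fold, 9 members were lower at 48 hr in each colony and 0 were higher, beside 37.7% and 36.8% of all genes that were lower. The median log2 fold change of the 10 at 48 hr was −0.78 in the *Stat5a* colony and −0.77 in the *Stat5b* colony, against −0.12 and −0.13 over all genes. In these bulk samples, fewer cells of a type and less RNA per cell cannot be told apart. Markers of other cells fell too, with 10 of 10 B cell, 12 of 12 macrophage and monocyte, 8 of 8 dendritic cell, and 6 of 6 erythroid markers lower at 48 hr in WT cells of both colonies, whereas 4 and 3 of 5 NK cell markers were higher, and their part in the falls of the members was not tested. Of the 7 CD8+ T cell markers 1 was higher and 2 lower in the *Stat5a* colony and 0 and 5 in the *Stat5b* colony, and of 4 CD4+ T cell markers 4 and 3 were lower.

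*Nfkbia* encodes IkappaBalpha, the inhibitor of the feedback loop. Its RPKM in the *Stat5a* colony WT cells was 486, 634, and 293 at 0 hr and 49.0, 48.3, and 52.6 at 48 hr. Among *Stat5b* colony WT cells it was 342, 230.0, and 257 at 0 hr and 46.8, 44.0, and 45.9 at 48 hr. All libraries at 48 hr thus lay far below all libraries at 0 hr, while the 0 hr libraries were themselves widely spread. The log2 fold change was −3.45 ± 0.21 (SE, adjusted p = 3.17e-17, edgeR) and −2.78 in the 2 colonies, and at 4 hr it was already −2.58 and −1.40. Without the pair of libraries that stood apart, it was −3.71 at 48 hr and −2.60 at 4 hr in the *Stat5a* colony. From 4 to 24 hr it fell further, by 0.65 and 0.90 on the log2 scale.

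*Rel* encodes c-Rel and fell the most among the subunits. Its RPKM in the *Stat5a* colony WT cells was 47.8, 56.4, and 29.6 at 0 hr, 13.2, 9.65, and 12.8 at 4 hr, and 8.01, 7.58, and 7.86 at 48 hr. In the *Stat5b* colony WT cells it was 33.5, 24.7, and 27.2 at 0 hr, 14.6, 13.4, and 11.8 at 4 hr, and 8.07, 7.15, and 7.77 at 48 hr. The 3 times did not overlap in either colony. The log2 fold change at 48 hr was −2.72 (adjusted p = 2.66e-17, edgeR) in the *Stat5a* colony and −2.07 in the *Stat5b* colony.

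*Nfkb2* and *Relb*, the subunits of the noncanonical pathway, followed another course, with a peak at 4 hr. Among *Stat5b* colony WT cells, *Nfkb2* had an RPKM of 35.9, 30.2, and 26.7 at 0 hr, 70.0, 59.5, and 52.8 at 4 hr, 29.0, 31.6, and 22.3 at 24 hr, and 27.6, 26.3, and 26.3 at 48 hr. All libraries at 4 hr were above all others of the colony's WT cells. The rise at 4 hr was 0.80 on the log2 scale (adjusted p = 0.000116, edgeR), and by 24 hr *Nfkb2* had fallen by 1.15 from 4 hr. *Relb* rose by 0.72 (adjusted p = 0.000849, edgeR) and *Nfkb1*, the gene of p105 and p50, by 0.27 (adjusted p = 0.023, edgeR) at 4 hr in the same cells, against 49.5% of all genes that passed in either direction. In the *Stat5a* colony WT cells the 4 hr values were 0.20 for *Nfkb2*, 0.16 for *Relb*, and −0.01 for *Nfkb1*, none of which passed. Here the low library at 4 hr decides the value, since without it alone the 3 genes passed as higher, at 0.44 (adjusted p = 0.0103, edgeR), 0.45 (adjusted p = 0.00648), and 0.18 (adjusted p = 0.0218). Without both libraries that stood apart, *Relb* (0.37) and *Nfkb1* (0.18) passed and *Nfkb2* (0.28, adjusted p = 0.0992, edgeR) did not. At 48 hr *Nfkb2* was lower than at 0 hr, by 0.52 (adjusted p = 0.0053) and 0.39 (adjusted p = 0.0374, edgeR) in the 2 colonies. The *Stat5b* value was −0.17 (adjusted p = 0.425, edgeR) without replicate 1 at 0 hr and was lost in 4 other leave-one-out fits, and by limma on log2(RPKM + 1) neither passed (−0.29, adjusted p = 0.245, and −0.19, adjusted p = 0.442).

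*Nfkb1* and *Rela*, which encode the subunits of the classical p50 and RelA dimer, differed in course. *Nfkb1* had an RPKM of 56.9, 50.7, and 55.1 at 0 hr and of 62.1, 64.1, and 62.3 at 48 hr in the *Stat5a* colony WT cells, and of 57.9, 55.3, and 53.2 and then 63.4, 61.7, and 62.5 in the *Stat5b* colony. The log2 fold change at 48 hr was 0.00 ± 0.10 (SE) in each colony (adjusted p = 0.965 and 0.987, edgeR), although the 48 hr RPKM lay above the 0 hr RPKM in both. RPKM is scaled to all mapped reads and the fit to the reads on transcripts. In the *Stat5a* colony WT cells, 69.22%, 69.58%, and 71.92% of mapped reads fell on the transcripts used at 0 hr. At 48 hr, 80.54%, 84.06%, and 82.28% did. By limma on log2(RPKM + 1) the median change at 48 hr in these cells was 0.36 higher than in the fit. That median is over another set of genes, so this shift is not one of scaling alone. *Rela* fell, from 42.9, 44.1, and 40.4 to 33.7, 33.2, and 33.3 in the *Stat5a* colony WT cells, by 0.55, and in the *Stat5b* colony by 0.65.

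The other inhibitors differed in time course. *Nfkbiz* encodes IkappaBzeta, a nuclear member of the family, and fell stepwise. Among *Stat5b* colony WT cells its RPKM was 46.2, 39.3, and 47.9 at 0 hr, 21.7, 21.4, and 19.2 at 4 hr, 12.3, 11.7, and 10.9 at 24 hr, and 7.895, 7.999, and 8.074 at 48 hr. No time overlapped another, and each step passed, at −1.27, −0.85, and −0.53, as it did in the *Stat5a* colony, at −1.58, −0.73, and −0.64. *Nfkbid*, which encodes the nuclear protein IkappaBNS, fell once, with an RPKM of 39.3, 26.9, and 29.7 at 0 hr, 19.8, 17.6, and 15.3 at 4 hr, and 18.9, 17.02, and 18.1 at 48 hr in the *Stat5b* colony WT cells. It had a log2 fold change of −1.04 at 4 hr and of −1.004 at 48 hr, and the steps after 4 hr did not pass in either colony. *Nfkbie*, the gene of IkappaBepsilon, was lower at 48 hr by 0.79 and 0.78 in the 2 colonies, and *Nfkbib*, the gene of IkappaBbeta, by 0.58 and 0.38. The last of these calls was lost when replicate 1 at 0 hr (−0.22, adjusted p = 0.0985, edgeR) or replicate 2 at 48 hr (−0.26, adjusted p = 0.0591, edgeR) of the *Stat5b* colony WT cells was left out. From 4 to 24 hr, 7 members passed as lower in each colony (55.7% and 49.2% of all genes passed in either direction), and from 24 to 48 hr 1 and 3 did (42.7% and 40.0%).

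**Figure D1:**
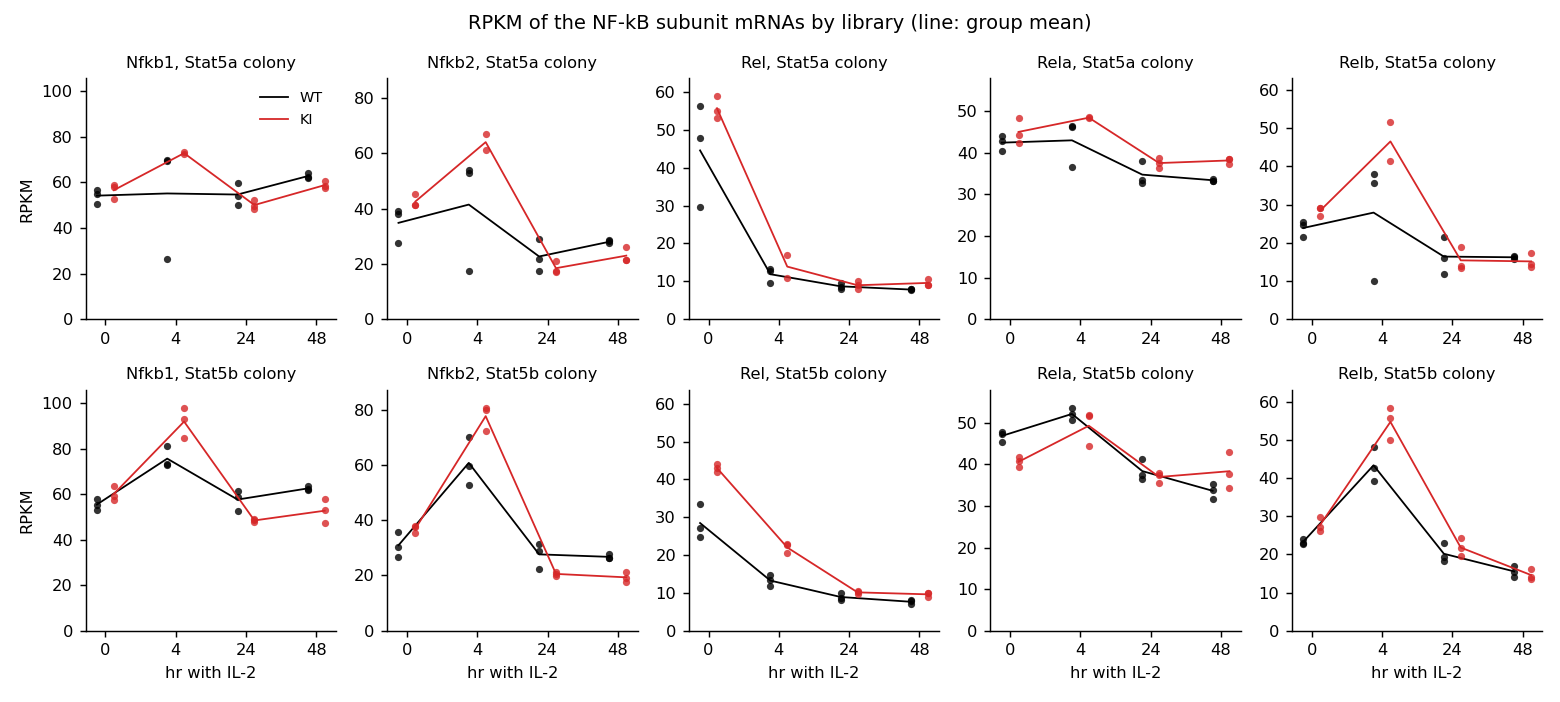
RPKM of the 5 subunit mRNAs in each library (points) and the group mean (line) by hr with IL-2. Times are evenly spaced on the axis, for WT (black) and KI (red) cells of the *Stat5a* (top) and *Stat5b* (bottom) colonies. *Nfkb2* and *Relb* peak at 4 hr, *Rel* is lower at 4, 24, and 48 hr than at 0 hr in all groups, and the single low WT point of the *Stat5a* colony at 4 hr, at 26.3 for *Nfkb1*, is replicate 2.

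**Figure D2:**
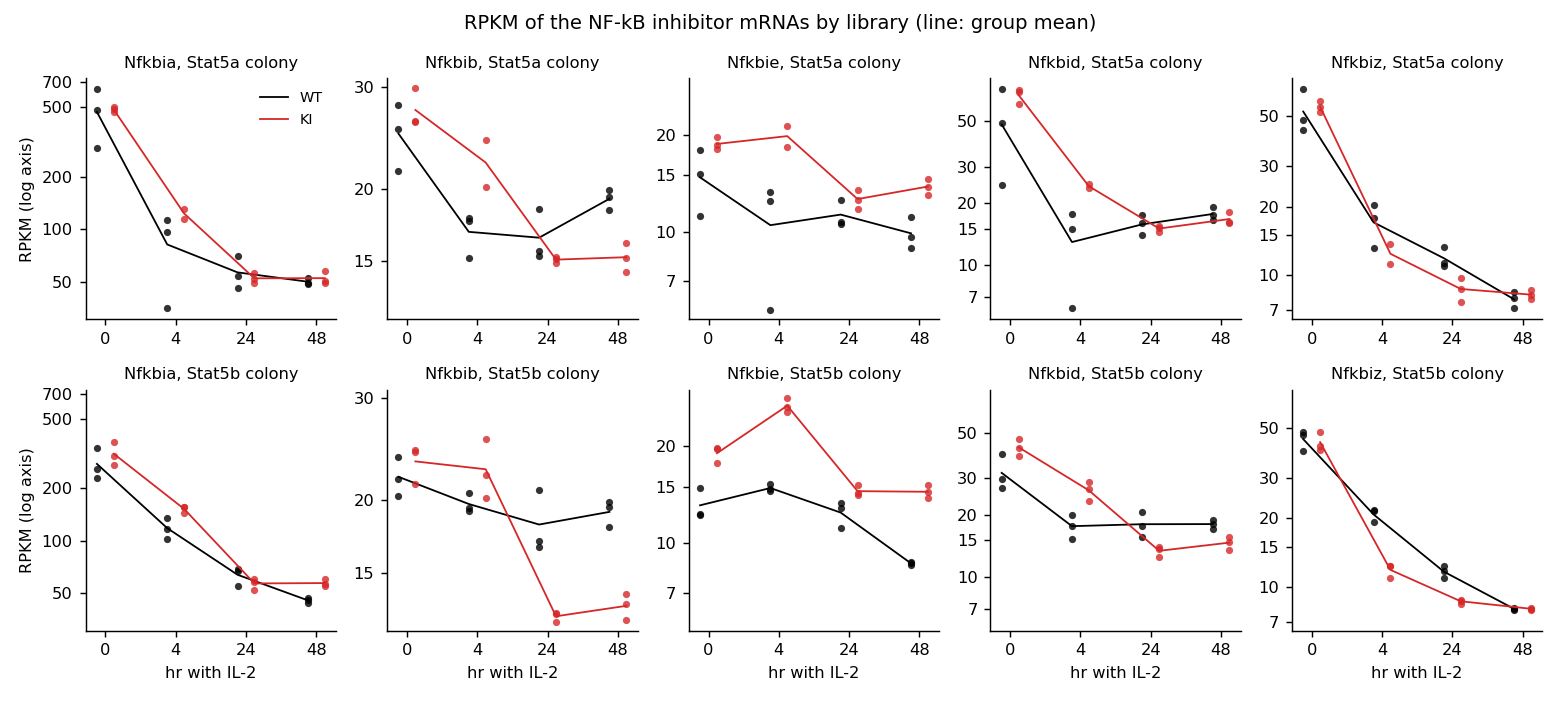
RPKM, on log axes, of the 5 inhibitor mRNAs in each library (points) and the group mean (line) by hr with IL-2. Times are evenly spaced, for WT (black) and KI (red) cells of the 2 colonies. *Nfkbia* drops from 230.0 to 634 at 0 hr in WT cells to at most 52.6 at 48 hr, and *Nfkbie* stays higher in KI than in WT cells at 48 hr.

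In KI cells, too, most members were lower at 24 and 48 hr than at 0 hr, whereas at 4 hr 5 were lower in each colony and 1 (*Relb*) was higher in *Stat5a* KI and 3 (*Nfkb1*, *Nfkb2*, and *Relb*) in *Stat5b* KI cells. By time, 6, 10, and 9 members passed in either direction at 4, 24, and 48 hr in the *Stat5a* colony (50.4%, 57.5%, and 62.3% of all genes), and 8, 10, and 10 in the *Stat5b* colony (48.5%, 47.9%, and 51.6%). In WT cells the counts were 6, 9, and 9 (58.4%, 59.0%, and 71.7%) and 8, 6, and 9 (49.5%, 59.6%, and 69.9%). At 48 hr, 7 members were at least 2-fold lower than at 0 hr in KI cells of each colony, since *Nfkb2*, *Relb*, and *Nfkbib* joined the 4 that were so in WT cells, with *Nfkbib* in the *Stat5b* colony near the limit (−1.02, and −0.94 without replicate 3 of the KI cells at 48 hr). This stands beside 16.7% and 13.2% of all genes in KI cells. *Nfkb2* fell by 1.13 in *Stat5a* KI and by 1.12 in *Stat5b* KI cells by 48 hr, after a rise at 4 hr of 0.85 in *Stat5b* KI cells (adjusted p = 5.78e-05, edgeR). Only the tests of the difference, given further on, compare these responses with those of WT cells.

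**Figure D3:**
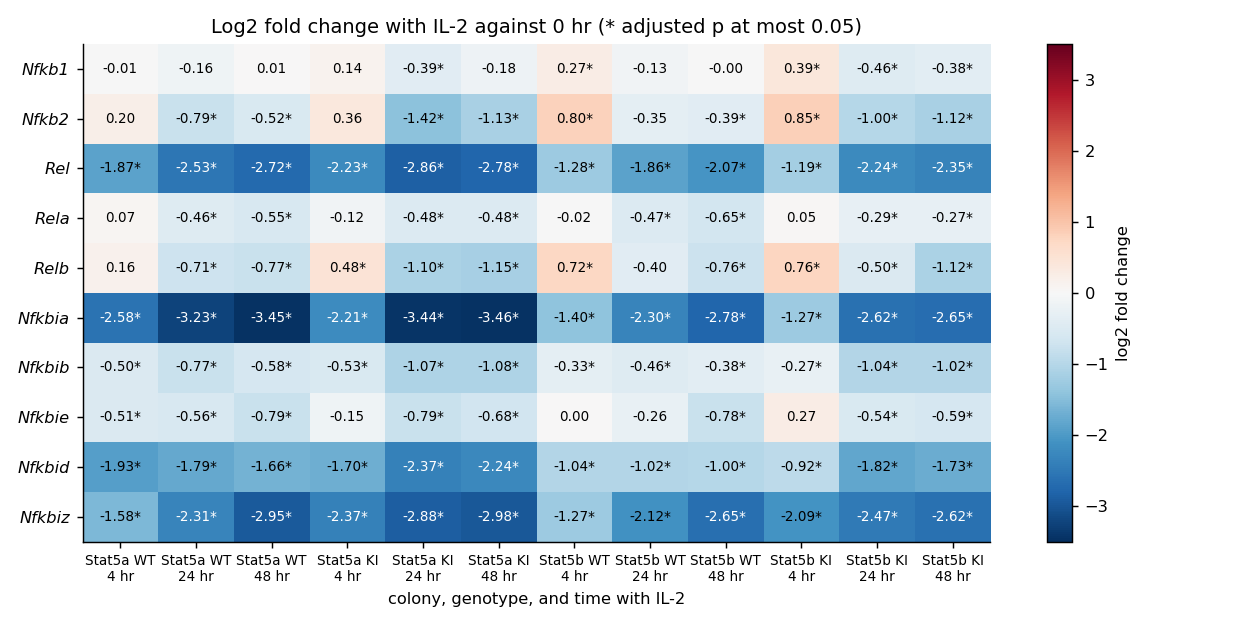
Log2 fold change against 0 hr from edgeR (colour and number, with * for an adjusted p of at most 0.05) of each member (rows) at 4, 24, and 48 hr with IL-2 in WT and KI cells of each colony (columns). The rows of *Rel*, *Nfkbia*, *Nfkbid*, and *Nfkbiz* are blue in all 12 columns, and *Nfkb2* and *Relb* are above 0 at 4 hr.

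The make-up of the subunit mRNAs shifted as well. *Nfkb1* was 27.4% ± 4.06 (SD, n = 3) of the summed RPKM of the 5 subunits at 0 hr in the *Stat5a* colony WT cells and 42.4% ± 0.37 at 48 hr, while *Rel* went from 22.0% ± 4.64 to 5.28% ± 0.19. In the *Stat5b* colony WT cells *Nfkb1* went from 30.0% to 42.8% and *Rel* from 15.4% to 5.24%. Among the inhibitors, *Nfkbia* made up 76.7% ± 1.93 of the summed RPKM at 0 hr and 47.8% ± 1.72 at 48 hr in the *Stat5a* colony, and 71.0% and 45.9% in the *Stat5b* colony. The summed inhibitor RPKM was 3.01 ± 0.77 times the summed subunit RPKM at 0 hr and 0.77 ± 0.03 times at 4 hr in the *Stat5a* colony WT cells, and 2.09 ± 0.26 and 0.78 ± 0.02 times in the *Stat5b* colony. The mean ratio of KI cells was not always the higher, being 2.87 at 0 hr and 0.796 at 24 hr in the *Stat5a* colony, against 3.01 and 0.814 in WT cells, and 0.77 at 24 hr in the *Stat5b* colony, against 0.812, with overlapping libraries in each case. At 48 hr the ratio was 0.706 ± 0.012 in WT and 0.735 ± 0.009 in KI cells of the *Stat5a* colony, and 0.68 ± 0.005 in WT and 0.801 ± 0.045 in KI cells of the *Stat5b* colony, and in neither colony did the libraries of WT and KI cells overlap. These are ratios of mRNA and say nothing of protein. The inhibitor sum includes *Nfkbid* and *Nfkbiz*, whose products are nuclear, so it is not a measure of the IkappaB proteins that hold dimers in the cytoplasm.

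KI cells were next compared with WT cells at each time, which asks what the loss of the phosphorylated tyrosine goes along with. For the *Stat5a* colony 0, 4, 1, and 2 members passed at 0, 4, 24, and 48 hr, beside 3.44%, 24.6%, 18.5%, and 44.3% of all genes. In the *Stat5b* colony 3, 4, 4, and 4 passed, beside 22.9%, 27.3%, 50.4%, and 63.6%. None differed by 2-fold. By DESeq2 0 members passed at 0 hr in the *Stat5a* colony as well. At an unadjusted p under 0.05 in edgeR 2 did, *Nfkbie* (0.32) and *Nfkbid* (0.45), beside 2523 of all 15566 genes.

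*Nfkbie* was higher in KI than in WT cells at 4 and 48 hr in both colonies and at 0 hr in the *Stat5b* colony. For the *Stat5b* colony its RPKM was 14.8, 12.3, and 12.2 in WT and 19.6, 19.8, and 17.7 in KI cells at 0 hr, 15.3, 14.7, and 14.5 against 28.2, 26.5, and 25.6 at 4 hr, and 8.74, 8.54, and 8.70 against 15.1, 13.8, and 14.4 at 48 hr. At each of these times all KI libraries were above all WT libraries. The log2 fold change was 0.47 ± 0.12 (SE, adjusted p = 0.00283, edgeR) at 0 hr, 0.74 ± 0.12 (adjusted p = 8.82e-06) at 4 hr, and 0.66 ± 0.12 (adjusted p = 7.96e-06) at 48 hr, whereas at 24 hr it was 0.19 (adjusted p = 0.171), although the libraries did not overlap. In the *Stat5a* colony the RPKM was 13.2, 5.71, and 12.5 in WT against 21.2 and 18.4 in KI cells at 4 hr (0.68, adjusted p = 0.000509, edgeR), and 11.1, 9.63, and 8.86 against 14.6, 13.0, and 13.8 at 48 hr (0.43, adjusted p = 0.00274, edgeR), again without overlap. It did not pass there at 0 hr (0.32, adjusted p = 0.12, edgeR) or at 24 hr (0.09, adjusted p = 0.65), when the RPKM of 10.7, 10.6, and 12.6 in WT and 13.5, 11.8, and 12.6 in KI cells overlapped. Without both libraries that stood apart, the 4 hr value was 0.55 (adjusted p = 0.000409, edgeR). The *Stat5a* call at 4 hr was lost in a fit of only the groups compared (0.65, adjusted p = 0.735, edgeR), and with all 48 libraries those at 4 hr (0.36, adjusted p = 0.308) and 48 hr (0.38, adjusted p = 0.285) and the *Stat5b* one at 0 hr (0.44, adjusted p = 0.325, edgeR) were. The *Stat5a* colony calls were also lost without replicate 1 of the KI cells at 4 hr (0.62, adjusted p = 0.0591, edgeR) and without replicate 3 of the WT cells at 48 hr (0.31, adjusted p = 0.051, edgeR).

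The mean summed RPKM of B cell and of macrophage and monocyte markers was also higher in KI cells, at every time in both colonies. This includes 24 hr, when *Nfkbie* did not pass. The B cell sum was then 25.0 to 32.7 in WT against 183.0 to 210.8 in KI cells of the *Stat5b* colony. In the *Stat5a* colony it was 26.4 to 89.6 against 183.5 to 230.5. The macrophage and monocyte sum at 24 hr was 6.54 to 11.1 against 47.2 to 90.7 and 6.13 to 18.4 against 34.0 to 89.0. The summed RPKM of the 10 B cell markers at 48 hr was 13.2, 11.2, and 13.6 in WT against 134.4, 130.9, and 138.4 in KI cells of the *Stat5b* colony, and 40.3, 33.1, and 13.4 against 118.4, 105.8, and 125.1 in the *Stat5a* colony, with *Cd79b* the most abundant in WT and *Cd79a* in KI cells, and none at 0. That of the 12 macrophage and monocyte markers was 3.46, 3.37, and 4.75 against 110.8, 70.05, and 92.4 in the *Stat5b* colony and 8.45, 6.50, and 3.34 against 74.5, 26.2, and 25.9 in the *Stat5a* colony, with *Cd68* the most abundant in WT and *Lyz2* in KI cells and *Fcgr1* at 0 in all *Stat5b* colony WT libraries at 48 hr. Every B cell marker passed as higher in KI cells at every time in the *Stat5b* colony (10 of 10), and 4, 6, 10, and 10 of 10 did at 0, 4, 24, and 48 hr in the *Stat5a* colony. Of the 12 macrophage and monocyte markers, 11, 10, 12, and 12 passed as higher in the *Stat5b* colony and 2, 7, 10, and 10 in the *Stat5a* colony. The cells had been purified with a CD8+ T cell isolation kit, which is meant to remove other cells. The part of B cells and macrophages in the difference in *Nfkbie*, or in any other member, was not tested.

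**Figure D4:**
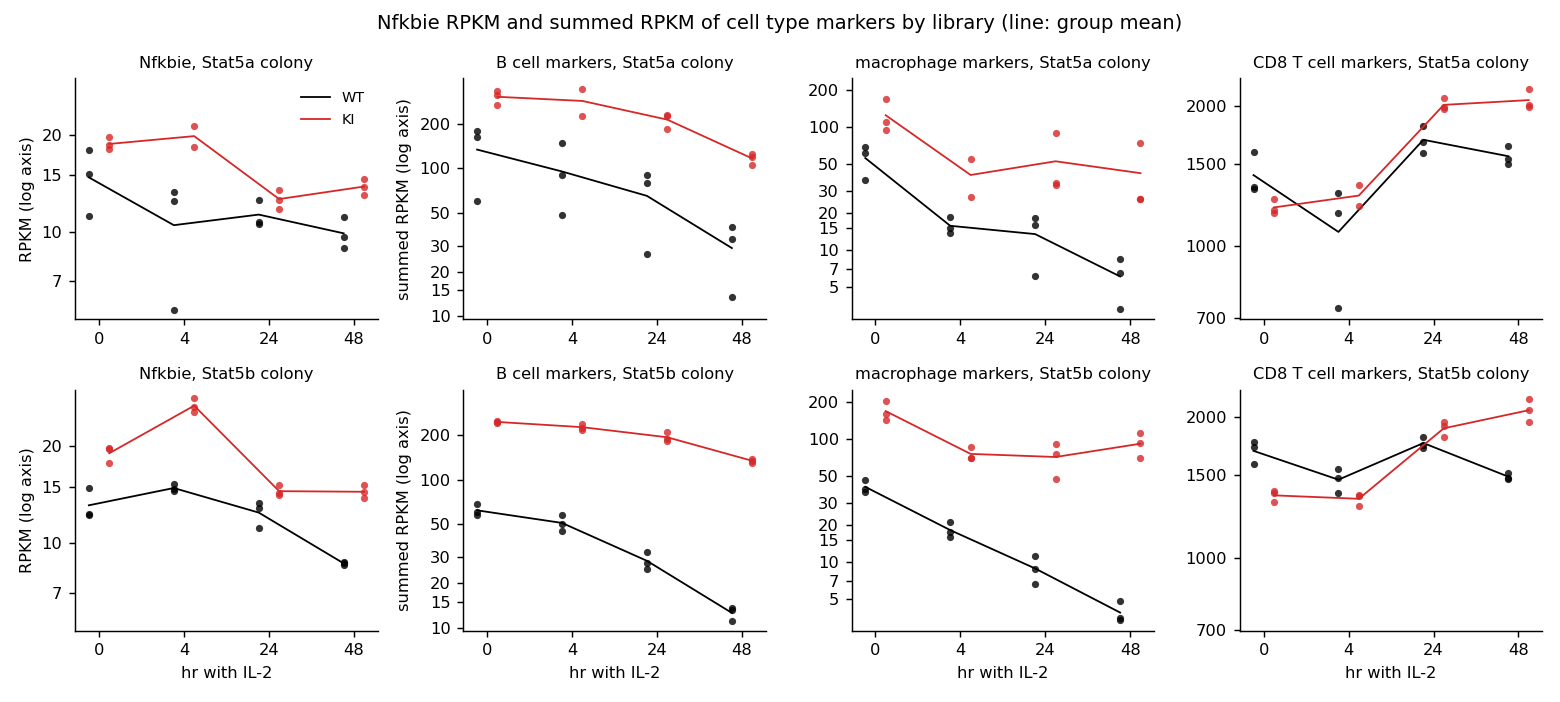
RPKM of *Nfkbie* and summed RPKM of the B cell, macrophage and monocyte, and CD8+ T cell markers in each library (points) and group means (lines). Axes are log, by hr with IL-2 (evenly spaced), in WT (black) and KI (red) cells of the 2 colonies. *Nfkbie* and the B cell and macrophage markers are higher in KI cells at 48 hr in both colonies, as is the CD8+ T cell marker sum, at 1953 to 2185 against 1473 to 1516 in the *Stat5b* colony.

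The other marker lists were given the same comparison. Of the 7 CD8+ T cell markers in the files, 7 passed as lower at 0 hr and 5 as higher at 48 hr in *Stat5b* KI cells, and 2 as lower and 5 as higher at these times in *Stat5a* KI cells. Dendritic cell markers passed as higher in 8 of 8 at 48 hr in the *Stat5b* colony and in 6 in the *Stat5a* colony (summed RPKM 38.5 to 44.0 and 31.9 to 34.2 in KI cells, with *Ccr9* the most abundant). CD4+ T cell markers did in 4 of 4 and 3 of 4 (17.2 to 17.7 and 12.6 to 13.3, *Cd4*). Of 6 erythroid markers, 6 passed as higher in the *Stat5b* colony and 0 in the *Stat5a* colony (110.8 to 206 and 17.9 to 22.5, *Hbb-bs*). Of 5 NK cell markers 3 passed as higher and 2 as lower in the *Stat5b* colony and 1 and 2 in the *Stat5a* colony, with a lower sum in KI cells (22.0 to 27.6 and 28.6 to 30.3 against 33.5 to 49.7 and 35.6 to 44.1 in WT cells, *Klre1*).

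*Nfkbiz* was lower in KI cells at 4 and 24 hr in both colonies, while at 0 and 48 hr it did not pass, with log2 fold changes of −0.11 to 0.05. For the *Stat5b* colony its RPKM at 4 hr was 21.7, 21.4, and 19.2 in WT and 12.3, 12.3, and 10.9 in KI cells, and at 24 hr 12.3, 11.7, and 10.9 against 8.43, 8.68, and 8.78. All KI libraries lay below all WT libraries at both times. The log2 fold change was −0.92 ± 0.11 (SE, adjusted p = 1.07e-07, edgeR) and −0.46 ± 0.11 (adjusted p = 0.000831, edgeR). In the *Stat5a* colony it was −0.74 (adjusted p = 0.000192, edgeR) at 4 hr, with an RPKM of 17.7, 13.2, and 20.2 in WT and 11.2 and 13.6 in KI cells, which overlap in RPKM at the low WT library, and −0.52 (adjusted p = 0.00126, edgeR) at 24 hr. Without both libraries that stood apart the 4 hr value was −0.68 (adjusted p = 0.000356, edgeR), and without replicate 1 of the KI cells it did not pass (−0.56, adjusted p = 0.0717, edgeR), nor did it in a fit of only the groups compared (−0.78, adjusted p = 0.735, edgeR). The means of *Nfkbie* and of the B cell and macrophage marker sums were higher in KI cells at 4 and 24 hr. The mean NK cell marker sum was lower in KI cells at every time in both colonies. For the *Stat5b* colony that sum was 14.67 to 23.5 in WT against 5.396 to 8.16 in KI cells at 4 hr. At 24 hr it was 21.24 to 26.33 against 6.129 to 10.43, and 15.14 to 18.9 against 10.59 to 12.16 in the *Stat5a* colony. In the *Stat5a* colony at 4 hr the libraries overlapped (6.654 to 13.03 against 6.964 to 7.267). The NK cell marker sum was lower in KI cells also when *Nfkbiz* did not pass. At 0 hr it was 11.44 to 16.14 against 4.879 to 6.074 in the *Stat5b* colony and 7.336 to 10.95 against 5.201 to 6.004 in the *Stat5a* colony. Its values at 48 hr are given above. The part of these cells in the *Nfkbiz* difference was not tested.

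*Nfkbib* was lower in KI cells at 48 hr in both colonies and at 24 hr in the *Stat5b* colony. For the *Stat5b* colony its RPKM was 17.1, 20.8, and 16.7 in WT against 12.8, 12.4, and 12.8 in KI cells at 24 hr, and 19.5, 17.99, and 19.8 against 13.8, 13.3, and 12.4 at 48 hr. In the *Stat5a* colony at 48 hr it was 18.4, 19.9, and 19.4 against 16.1, 15.2, and 14.4. None of these groups overlapped. The log2 fold change was −0.55 (adjusted p = 3.07e-05, edgeR) and −0.62 (adjusted p = 3.38e-06) in the *Stat5b* colony and −0.39 ± 0.10 (SE, adjusted p = 0.00245) in the *Stat5a* colony. There it did not pass at 24 hr (−0.19, adjusted p = 0.215, edgeR), and the 48 hr call was lost with all 48 libraries (−0.44, adjusted p = 0.0506). The transcript of *Nfkbib* shares 311 of its 2065 exon bases with *Ccer2* on the other strand, and whether the counts used strand is not given in the sources used here, so reads of these genes cannot be told apart there.

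Among the subunits, *Rel* was higher in *Stat5b* KI cells early on. Its RPKM was 33.5, 24.7, and 27.2 in WT and 43.1, 44.0, and 42.0 in KI cells at 0 hr, and 14.6, 13.4, and 11.8 against 22.7, 22.9, and 20.6 at 4 hr. The KI libraries lay above the WT libraries at both times, with log2 fold changes of 0.53 ± 0.15 (SE, adjusted p = 0.0095, edgeR) and 0.62 ± 0.15 (adjusted p = 0.00233, edgeR), the first of which was lost without replicate 2 (0.41, adjusted p = 0.0943) or 3 (0.47, adjusted p = 0.0536, edgeR) of the WT cells. *Rela* was lower at the same times, at 40.9, 41.7, and 39.3 against 47.2, 47.9, and 45.4 in WT cells at 0 hr (−0.27, adjusted p = 0.0081, edgeR). The 0 hr calls of *Rel* and *Rela* were both lost with all 48 libraries, where 0 members passed. At 4 hr the *Rela* value was −0.19 (adjusted p = 0.0492), the RPKM overlapped (51.8, 51.8, and 44.3 against 53.6, 52.1, and 50.8), and the call was lost without any single library of these 2 groups and with DESeq2 (−0.18, adjusted p = 0.093).

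*Nfkb1* and *Nfkb2* were lower in *Stat5b* KI cells from 24 hr on. At 48 hr *Nfkb2* had an RPKM of 27.6, 26.3, and 26.3 in WT and of 21.1, 19.1, and 17.8 in KI cells (−0.55 ± 0.17, SE, adjusted p = 0.00461, edgeR), and *Nfkb1* had 63.4, 61.7, and 62.5 against 58.0, 53.0, and 47.1 (−0.33 ± 0.10, adjusted p = 0.00511, edgeR), neither overlapping. At 24 hr the values were −0.45 (adjusted p = 0.0219, edgeR) and −0.28 (adjusted p = 0.02). Without replicate 2 of the WT cells neither 24 hr call held (−0.35, adjusted p = 0.111, and −0.24, adjusted p = 0.067, edgeR), nor did they by limma on log2(RPKM + 1) (−0.40, adjusted p = 0.146, and −0.24, adjusted p = 0.25). The *Nfkb2* call was also lost in 3 other leave-one-out fits. On the RPKM scale, by limma on log2(RPKM + 1), the 48 hr values were −0.45 (adjusted p = 0.0748) and −0.25 (adjusted p = 0.211), so that neither passed in this fit, which differs in scaling and in model. For the *Stat5a* colony at 48 hr *Nfkb2* had a log2 fold change of −0.34 (adjusted p = 0.0963, edgeR) and *Nfkb1* of −0.14 (adjusted p = 0.253). *Relb* passed once, as higher in *Stat5a* KI cells at 4 hr (0.55, adjusted p = 0.0368, edgeR), which was lost without both libraries that stood apart (0.26, adjusted p = 0.253). *Nfkbid* also passed there (0.68, adjusted p = 0.0254, edgeR) and without them (0.49, adjusted p = 0.0287), but not without the first (0.75, adjusted p = 0.138) or the second (0.63, adjusted p = 0.104, edgeR) KI library, or without replicate 2 of the WT cells alone (0.49, adjusted p = 0.155). *Nfkbia* did not pass at any time in either colony, with values from −0.20 to 0.39.

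**Figure D5:**
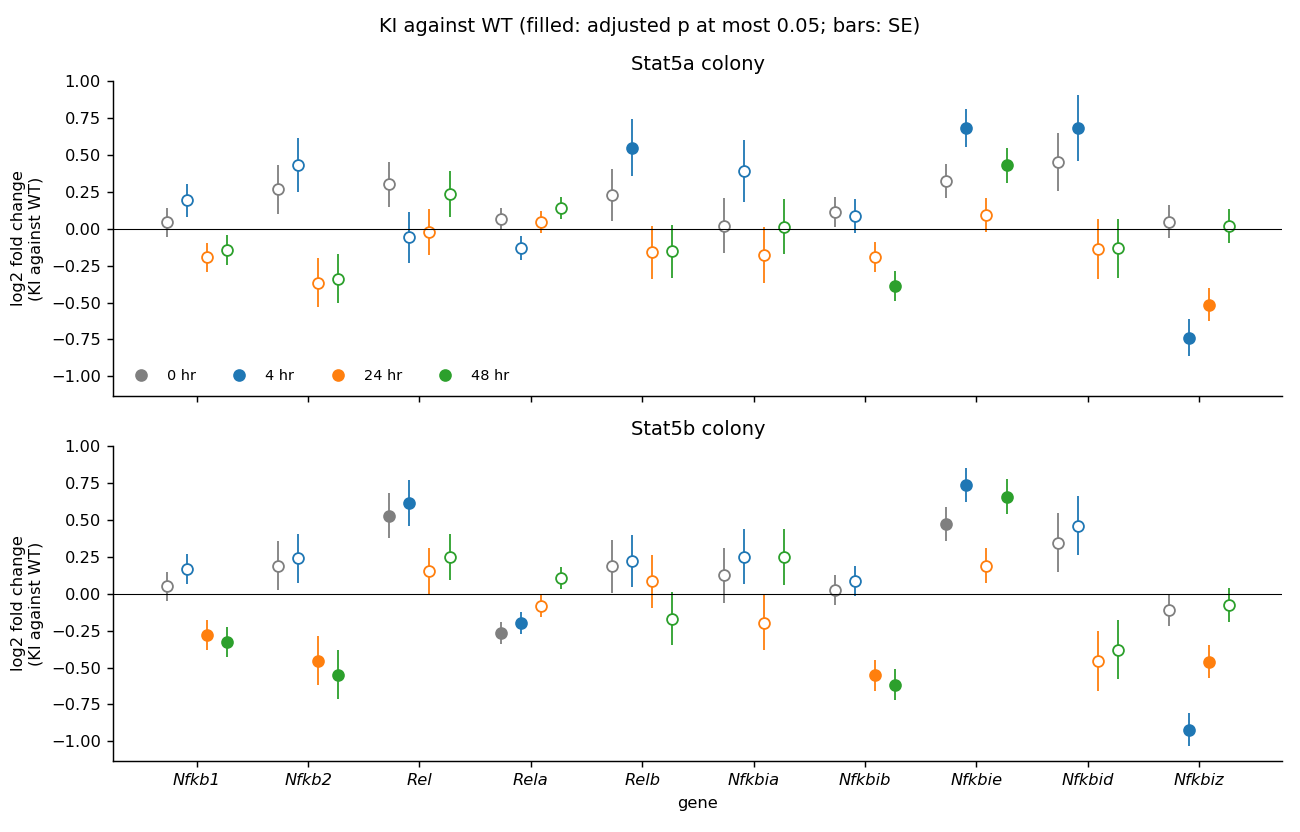
Log2 fold change of KI against WT cells from edgeR (circles, filled for an adjusted p of at most 0.05) with SE (bars) for each member at 0 (grey), 4 (blue), 24 (orange), and 48 hr (green), in the *Stat5a* colony (top) and the *Stat5b* colony (bottom). *Nfkbie* lies above 0 at all times in both colonies, *Nfkbiz* falls to −0.74 and −0.92 at 4 hr, and *Nfkbib* is below 0 at 24 and 48 hr.

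Whether the response to IL-2 differed between KI and WT cells was tested as the change from 0 hr in KI cells minus that in WT cells. In the *Stat5a* colony 1, 1, and 2 members passed at 4, 24, and 48 hr (1.54%, 5.11%, and 28.0% of all genes), and in the *Stat5b* colony 1, 3, and 5 did (1.99%, 33.8%, and 49.4%). At 4 hr *Nfkbiz* passed in both colonies, at −0.79 ± 0.17 (SE, adjusted p = 0.0136, edgeR) and −0.82 ± 0.16 (adjusted p = 0.00162, edgeR). The *Stat5a* call was lost without both libraries that stood apart (−0.60, adjusted p = 0.0563, edgeR), by limma on log2(RPKM + 1) (−0.51, adjusted p = 0.0852), and in a fit of only the groups compared (−0.81, adjusted p = 0.828, edgeR). At 48 hr *Nfkb2* (−0.61 and −0.74) and *Nfkbib* (−0.50 and −0.64) passed in both colonies, both with a larger fall in KI cells, although for *Nfkb2* in the *Stat5a* colony the value without the pair of libraries was −0.45 (adjusted p = 0.0504, edgeR). *Nfkb1* (−0.38) and *Nfkbid* (−0.72) did so in the *Stat5b* colony, where *Rela* fell less in KI than in WT cells (0.38, adjusted p = 0.00315, edgeR). *Nfkbie* did not pass at any time (−0.28 to 0.36). Tests at the 3 times of a colony share its 0 hr libraries, as do the comparisons with 0 hr given above.

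The KI effects of the 2 colonies were also compared directly, as the effect in the *Stat5b* colony minus that in the *Stat5a* colony. By edgeR 0 members passed at 0, 4, 24, and 48 hr, beside 0.193%, 10.9%, 14.1%, and 11% of all genes. *Rel* at 4 hr came nearest, with 0.67 ± 0.23 (SE, adjusted p = 0.0538, edgeR). It passed with DESeq2 (0.75, adjusted p = 0.0246), as the only member to do so, and with the replicate block (0.75, adjusted p = 0.0251, edgeR). When each library was left out in turn, the *Rel* value ranged from 0.348 to 1.055. In fits of only the groups compared, *Nfkbib* passed at 24 hr (−0.34, adjusted p = 0.0459) and *Nfkbia* (0.23, adjusted p = 0.0396), *Nfkbib* (−0.23, adjusted p = 0.0271), and *Nfkbid* (−0.25, adjusted p = 0.0442, edgeR) at 48 hr, and without the pair of libraries that stood apart *Nfkbib* did at 24 hr (−0.36, adjusted p = 0.0181). At an unadjusted p under 0.05 in edgeR were *Rela* at 0 hr (−0.33), *Rel* at 4 hr, and *Nfkbib* at 24 hr (−0.36). This stands beside 1876, 4677, 4266, and 3820 of all 15566 genes at 0, 4, 24, and 48 hr. For *Nfkbie* at 48 hr the difference was 0.23 ± 0.17 (SE) and for *Nfkbiz* at 4 hr −0.18 ± 0.17. A p above the threshold does not show that the colonies act alike.

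The wider pathway was described through lists of genes by role. Of 25 genes of the activation machinery (the IKK kinases and the adaptors upstream of them), 6 passed as higher and 12 as lower at 48 hr against 0 hr in the *Stat5a* colony WT cells, and 5 and 14 did in the *Stat5b* colony, beside 71.7% and 69.9% of all genes in either direction. *Bcl10*, an adaptor of the antigen receptor pathway, fell by 1.60 and 1.39, from an RPKM of 59.5 to 22.7 and of 52.1 to 22.5. *Map3k14*, the gene of NIK, the kinase of the noncanonical pathway, fell by 1.24 and 1.58, and *Ikbke*, an IKK-related kinase, by 1.06 and 1.53. In KI against WT cells at 48 hr, 9 were higher and 2 lower in the *Stat5a* colony and 11 and 4 in the *Stat5b* colony, near the 44.3% and 63.6% of all genes. In *Stat5b* KI cells *Ikbke* was 1.21 higher (RPKM 48.0 against 19.6, adjusted p = 4.03e-12, edgeR).

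Of 18 brakes on the pathway, 6 rose and 9 fell by 48 hr in the *Stat5a* colony WT cells, and 5 and 9 in the *Stat5b* colony, beside 71.7% and 69.9% of all genes. *Tnfaip3*, the gene of A20, an enzyme that edits ubiquitin chains, fell from an RPKM of 579 to 8.26 and of 583 to 7.60, with log2 fold changes of −6.34 and −6.44. *Zc3h12a*, the gene of the RNase Regnase-1, fell, with −3.42 and −3.28. *Commd1* rose by 1.18 and 1.35, and was 1.04 lower in *Stat5b* KI than in WT cells (RPKM 18.5 against 36.0). In KI against WT cells at 48 hr 1 was higher and 2 lower in the *Stat5a* colony, and 5 and 4 in the *Stat5b* colony, beside 44.3% and 63.6% of all genes.

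Receptors and ligands of the TNF, IL-1, and Toll-like families moved both ways. Of 25, 13 rose and 10 fell by 48 hr in the *Stat5a* colony WT cells and 10 and 11 in the *Stat5b* colony (71.7% and 69.9% of all genes). *Lta*, the gene of lymphotoxin alpha, rose by 4.13 and 4.41, to an RPKM of 82.0 and 83.0, and was lower in KI cells at 48 hr, at −2.81 (RPKM 12.1) and −3.62 (RPKM 7.11). *Tnfrsf9*, the costimulatory receptor 4-1BB, rose by 3.27 and 3.68, and *Ltbr*, the lymphotoxin beta receptor, fell, at −2.99 and −3.52, from an RPKM of 1.22 and 1.01. At 48 hr 10 were higher and 4 lower in *Stat5a* KI cells and 12 and 6 in *Stat5b* KI cells (44.3% and 63.6% of all genes). Those furthest above WT cells in KI cells at 48 hr included *Tnfrsf13c*, the BAFF receptor, best known from B cells (1.93 and 3.12). Its RPKM was 6.48 against 1.65 in WT cells and 7.80 against 0.85. The others were *Tlr4* in the *Stat5b* colony (3.44, RPKM 0.659 against 0.0572) and *Il1r1* in the *Stat5a* colony (2.91, RPKM 0.142 against 0.0182). The B cell and macrophage marker sums given above were also higher in KI cells at 48 hr, and their part was not tested.

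Of 25 genes known as NF-kB targets, 8 rose and 12 fell by 48 hr in the *Stat5a* colony WT cells and 9 and 11 in the *Stat5b* colony (71.7% and 69.9% of all genes), with *Tnfaip3*, *Lta*, and *Il2ra* changing most. *Il2ra*, the alpha chain of the IL-2 receptor, rose by 3.72 and 4.59, from an RPKM of 3.36 to 51.05 and of 2.19 to 59.4. In KI cells at 48 hr, 2 were higher and 8 lower in the *Stat5a* colony and 5 and 11 in the *Stat5b* colony, shares near the 44.3% and 63.6% of all genes. *Il2ra* was lower by 2.09 (RPKM 12.5) and 2.54 (RPKM 10.7), and the chemokine gene *Ccl3* by 1.40 (17.1 against 43.4) and 1.98 (12.3 against 45.6). *Il2ra* and *Lta* are also known to be driven by other factors than NF-kB, STAT5 among them for *Il2ra*.

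The members fell into sets with like patterns over the 47 libraries, as described by Pearson's r of log2 CPM. *Rel* and *Nfkbia* were alike (r = 0.974), as were *Nfkbia* and *Nfkbiz* (0.944) and *Nfkbia* and *Nfkbid* (0.931), and *Nfkb2* and *Relb* formed another pair (0.942), with *Nfkb1* nearest to *Nfkb2* (0.887). *Nfkb1* and *Nfkbiz* were least alike (0.303). Among 9120 genes of sufficient abundance, those most like *Nfkbia* were *Zc3h12a* (0.984), *Maff* (0.980), and *Tnfaip3* (0.979), and those most like *Rel* were *Fosb* (0.975), *Nfkbia*, and *Tnfaip3* (0.970). *Relb* and *Nfkb2* shared *Birc3* (0.942 and 0.911) among their 3 nearest, with *Ramp3* (0.923) for *Relb* and *Tfe3* (0.943) for *Nfkb2*. *Nfkbiz* was most like *Klf6* (0.983), *Zbtb10*, and *Ccnl1*, *Nfkbid* most like *Ets2* (0.964), *Cd69*, and *Chka*, and *Nfkbib* most like *Nr4a3* (0.948), *Ifrd1*, and *Nr4a1*. *Nfkbie* was most like *Clip2* (0.919), *Cd83* (0.913), and *Irf5* (0.908), *Rela* most like *Prkx* (0.938), *Samd4b*, and *Mnt*, and *Nfkb1* most like *Nfkb2*, *Ube2o* (0.880), and *Kdm2b*. The libraries share groups, colonies, and times, so these values describe the pattern over groups and are not independent points.

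The genes lie on 7 chromosomes of GRCm38: *Nfkb1* on chr3:135584655-135691969, *Nfkb2* on chr19:46300994-46312400, *Rel* on chr11:23736847-23770969, *Rela* on chr19:5637442-5648134, and *Relb* on chr7:19606217-19629438. *Nfkbia* lies on chr12:55489409-55492647, *Nfkbib* on chr7:28758251-28766644, *Nfkbie* on chr17:45555700-45563169, *Nfkbid* on chr7:30421731-30428749, and *Nfkbiz* on chr16:55811375-55838954. The values are reads over exons of these transcripts. *Nfkb2* and *Nfkbiz* have 3 transcripts each in the files and the others 1, and for all 10 the longest transcript also had the highest mean count.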

How the data were processed

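RNA-seq of 48 libraries was used in its deposited form, and a ChIP sample was not analysed here. Per the labels, the authors sequenced 50 bp single-end reads, and the submitters' processing notes name Bowtie2 2.2.6, TopHat2 2.0.11, SAMtools 0.1.8, bedtools 2.25.0, and edgeR, with mm10. The authors deposited, for each RefSeq transcript, a count of uniquely mapped reads over exons and an RPKM value. The counting program and its use of strand are not given in the sources used here.

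For each of 23992 symbols the longest transcript was kept (4343 symbols had more than 1), and 47 libraries were used. Counts were fitted with edgeR 4.0.16 (R 4.3.3; TMM scaling, filterByExpr with a minimum count of 10, quasi-likelihood test, 1 mean per group), and 34 comparisons were each adjusted by the Benjamini-Hochberg method over 15566 genes. Alternatives were DESeq2 1.42.0, its size factors in edgeR, no filter on low counts, limma 3.58.1 on log2(RPKM + 1) and log2(RPKM + 0.1), all 48 libraries, only the groups compared, the transcript with the highest mean count, a replicate block, and leaving out each library. The fit was also run on simulated data with the same spread for every gene and few genes changed, unlike these data. That run does not show how the fit performs here. No 2 libraries of a group agreed within sampling noise (chi-square per gene 4.64 to 208.6 over 46 pairs). Depth limits precision through counting error, which the fit includes.

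Members and gene lists were chosen with earlier results of these data known. The text names all 10 members and, from each pathway list, the 3 genes with the largest change at 48 hr (WT against 0 hr, and KI against WT, in each colony) among those that passed, were at least 2-fold changed, and did not overlap between groups in CPM. Likeness is Pearson's r over genes with a mean log2 CPM of at least 3. Pairing of libraries by replicate number was looked at through the correlation of deviations from group means. All correlations were positive for *Stat5a* colony WT cells at 24 hr (0.206, 0.273, and 0.419) and 48 hr (0.166, 0.117, and 0.192) against 0 hr. They were also positive in other comparisons, among them *Stat5a* KI cells at 24 against 0 hr (0.195, 0.076, and 0.158). Others had both signs or were below 0, such as *Stat5a* KI against WT at 48 hr (−0.048, −0.023, and 0.006). No cut-off for pairing was set, and the main fit did not pair libraries, whereas the replicate block did.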

Additional observations from a re-analysis of the deposited data

Results flagged for a closer look

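The results below were marked because the change from 0 hr differed between KI and WT cells by a test of that difference (edgeR, adjusted p at most 0.05). Values are the log2 change in KI minus that in WT cells, and the cause was not tested.

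For *Nfkbiz* the difference was −0.788 (adjusted p = 0.0136) at 4 hr and −0.564 (adjusted p = 0.0268) at 24 hr in the *Stat5a* colony, and −0.815 (adjusted p = 0.00162) at 4 hr in the *Stat5b* colony. The first was lost without replicate 1 of the KI cells at 4 hr (−0.615, adjusted p = 0.273), and the second in 6 leave-one-out fits (adjusted p 0.0531 to 0.107). Without the pair of libraries that stood apart they were −0.603 (adjusted p = 0.0563) and −0.436 (adjusted p = 0.0574).

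For *Nfkb2* it was −0.607 (adjusted p = 0.0492) at 48 hr in the *Stat5a* colony, and −0.646 (adjusted p = 0.0301) at 24 hr and −0.739 (adjusted p = 0.00848) at 48 hr in the *Stat5b* colony. The first was lost in 9 leave-one-out fits and the second in 8, and without the pair of libraries the first was −0.45 (adjusted p = 0.0504).

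For *Nfkbib* it was −0.501 (adjusted p = 0.0089) at 48 hr in the *Stat5a* colony, and −0.577 (adjusted p = 0.0019) at 24 hr and −0.641 (adjusted p = 0.000373) at 48 hr in the *Stat5b* colony. The first was −0.392 (adjusted p = 0.00904) without the pair. In the *Stat5b* colony *Nfkbid* had −0.804 (adjusted p = 0.0256) at 24 hr and −0.725 (adjusted p = 0.0324) at 48 hr, each lost in 5 leave-one-out fits. There, *Nfkb1* had −0.377 (adjusted p = 0.026) at 48 hr, lost without replicate 2 of the KI cells at 0 hr (−0.343, adjusted p = 0.0609), and *Rela* had 0.378 (adjusted p = 0.00315).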

How the results depend on the processing

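Values are numbers of members that passed. With all 48 libraries, in the *Stat5a* colony 5 passed for WT cells at 24 against 0 hr, 2 and 0 for KI against WT at 4 and 48 hr, and 0 and 0 for the difference in response at 24 and 48 hr. For *Stat5b* 6 passed for KI cells at 24 against 0 hr, 0, 2, 2, and 2 for KI against WT at 0, 4, 24, and 48 hr, 0 and 1 for the difference in response at 24 and 48 hr, and 4 and 1 for the WT steps to 24 and 48 hr. The subunit shares of *Stat5a* KI cells at 4 hr became 25.49% for *Nfkb1*, 19.52% for *Nfkb2*, 21.73% for *Rel*, 18.76% for *Rela*, and 14.49% for *Relb*, and the inhibitor shares 66.25% for *Nfkbia*, 9.397% for *Nfkbib*, 6.775% for *Nfkbie*, 10.01% for *Nfkbid*, and 7.568% for *Nfkbiz*. By limma with either pseudocount, 8 passed for KI against WT at 4 hr and 0, 0, and 1 for the difference in response at 4, 24, and 48 hr in the *Stat5a* colony, and 2 for KI against WT at 24 hr and 1 and 2 for the difference in response at 24 and 48 hr in the *Stat5b* colony. With the pseudocount of 0.1, 6 passed for *Stat5b* KI cells at 24 against 0 hr. In fits of only the groups compared, 0, 2, and 6 passed for KI against WT at 4, 24, and 48 hr, 0 and 0 for the difference in response at 4 and 24 hr, and 4 for the WT step to 24 hr in the *Stat5a* colony, 9 and 7 for KI against WT at 4 and 48 hr, 6 for the difference in response at 24 hr, and 6 for the WT step to 48 hr in the *Stat5b* colony, and 1 and 3 for the difference between colonies at 24 and 48 hr. Without the pair of libraries that stood apart, chosen after seeing the data, 3 and 4 passed for KI against WT at 24 and 48 hr, 0, 0, and 1 for the difference in response at 4, 24, and 48 hr, and 3 for the WT step to 48 hr in the *Stat5a* colony, 6 for the difference in response at 24 hr and 5 for the WT step to 48 hr in the *Stat5b* colony, and 1 for the difference between colonies at 24 hr. For the difference between colonies at 4 hr, 1 (*Rel*) passed with DESeq2, its size factors, the replicate block, or the transcript with the highest mean count. *Nfkb1* in *Stat5a* colony WT cells at 4 against 0 hr reversed, to 0.185 without that pair and 0.184 without replicate 2 at 4 hr, in a leave-one-out range of −0.066 to 0.184. The cause of these changes was not tested.

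The replicate block, which pairs libraries by number, added 3 calls and lost 0: *Nfkbie* in *Stat5b* colony WT cells at 24 against 0 hr (−0.262, adjusted p = 0.0485), *Nfkb1* in the *Stat5b* difference in response at 24 hr (−0.328, adjusted p = 0.046), and *Rel* at 4 hr between colonies (0.745, adjusted p = 0.0251).

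Leaving out each library gave 0 to 7 members for *Stat5a* KI against WT at 4 hr, 0 to 2 at 0 hr, 1 to 2 at 24 hr, and 1 to 3 at 48 hr, and in the *Stat5b* colony 2 to 3 at 0 hr, 3 at 4 hr, 2 to 5 at 24 hr, and 4 at 48 hr. The difference in response gave 0 to 1, 0 to 2, and 1 to 3 at 4, 24, and 48 hr in the *Stat5a* colony and 1, 1 to 4, and 3 to 5 in the *Stat5b* colony. The difference between colonies gave 0 to 1 at 4 hr, and the *Stat5a* WT step to 48 hr 1 to 4 and the *Stat5b* one 2 to 3. Against 0 hr, WT cells gave 6 to 9 at 4 hr in the *Stat5a* colony and 7 to 8 at 4 hr and 7 to 9 at 48 hr in the *Stat5b* colony, and KI cells 5 to 6 at 4 hr in the *Stat5a* colony and 7 to 8, 8 to 10, and 9 to 10 in the *Stat5b* colony. Leaving out a library can change the library that TMM scales to, which shifted the scaling of WT cells between 0 and 48 hr by 0.081 and 0.082 on the log2 scale.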
